A study of Saccharomyces cerevisiae W303 with 28 samples.

Results

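The regions described here are the zones that flank the outermost chromosome ends, from 20 to 50 kb inward. They comprise the 1-kb windows of all chromosomes except 5, the broken one, whose middle lies more than 20 and up to 50 kb from position 1 or from the last deposited window. A window was kept when the extract of the first HA-tagged wild-type replicate lay between 0.25 and 4 times its median. Of 900 windows within the distance limits 825 were kept, out of 12447 windows in all and 11630 that passed the filter. The rule itself uses no Scc1 value, but the distance limits were chosen with earlier results of these data known. The 15 chromosomes have 30 such ends, of which 29 had a kept window and 24 had all 30 of theirs. Of the 75 windows left out, 56 had an extract coverage of 0. The right end of chromosome 12 lost all 30, and its outermost kept window lay 141.5 kb from the last deposited position. On the right end of chromosome 4 only 3 of 30 windows were kept.

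Chromatin immunoprecipitation followed by sequencing (ChIP-seq) of Scc1 was read from 14 immunoprecipitates (IP) and their 14 whole-cell extracts, all from budding yeast of the W303 background collected after 4 h in galactose. HA-tagged Scc1 (Scc1-6HA) was measured with a site-specific double-strand break (DSB) on chromosome 5 and with nocodazole in wild type, rad17, pds5-AID and rad17 pds5-AID (n = 2 libraries each). The same tag was measured once in wild type with an uncleavable site and nocodazole. Pk-tagged Scc1 (Scc1-PK9) has 1 library for each of 4 conditions: a break in wild type, an uncleavable site in wild type and a break in rad17, these 3 under nocodazole, and a break in wild type without the drug. Cells with the break but no tag, also under nocodazole, gave the background of the IP (n = 1). Each group was 1 strain. Whether replicates were separate cultures is not in the labels, so the p-values below reflect library-to-library spread that may be technical in part or whole. The labels name no auxin for the degron strains, so the extent of Pds5 loss is not known here.

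Cohesin is a ring of proteins that holds sister chromatids together and extrudes chromatin loops, and Scc1 is the subunit that closes it. Pds5 binds the ring and regulates its loading, its release and its acetylation, and the AID tag allows a protein to be degraded upon addition of auxin. Rad17 is part of the checkpoint clamp that is loaded onto DNA at sites of damage, and nocodazole arrests cells in mitosis by removing microtubules. In budding yeast cohesin is densest around centromeres and sits along arms in separate peaks, many of them between convergent genes. The chromosome ends are made of telomeric repeats and subtelomeric repeat families, and the regions studied here lie inward of most of these.

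Zone windows were covered by a median of 25.2 to 86.7 reads in the HA IP libraries (the smallest IP value above 0 taken as 1 read), 45.2 and 54.8 in the Pk rad17 and Pk wild-type break libraries, 35.8 in the untagged IP, 9.83 in the Pk no-break IP and 2.5 in the Pk IP without nocodazole, where 21 zone windows were at 0. The mean extract of the zone, relative to the library median, was 0.973 to 1.06 in the HA libraries. The log2 extract varied between zone windows with an SD of 0.258 to 0.283 in 7 HA extracts, 0.514 in wild-type replicate 2 and 0.829 in the HA no-break library. The Pk no-break extract, at 0.640, was uneven as well. Replicates of a group correlated over the 825 windows with r = 0.946 to 0.974. The HA no-break library bears a treatment entry for break induction, against its title. Its extract within 5 kb of the break site was 0.949 of the library median, against 0.122 to 0.240 in the 8 HA break libraries, and the title was followed.

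Wild-type cells carried about as much Scc1 in the zone as in the arm interior, the windows over 50 kb from both ends and over 15 kb from the chromosome's Scc1 maximum (9422 windows). The zone level, given throughout as log2 of mean IP over mean relative extract, was 4.67 and 4.79 in the wild-type replicates and 4.47 without a break. It was 4.16 and 4.41 in rad17, 3.61 and 4.13 in pds5-AID, and 3.0 and 3.30 in rad17 pds5-AID. The 4 break genotypes did not overlap, with wild type highest and the double mutant lowest. Against the untagged strain, at 0.99, the zone stood 13.4-fold higher in wild type, 9.82-fold in rad17, 7.35-fold in pds5-AID and 4.47-fold in rad17 pds5-AID. Levels minus the interior of the same library were -0.02 and -0.05 in wild type and -0.17 without a break. They were -0.05 and -0.08 in rad17, -0.18 and -0.22 in pds5-AID, and -0.24 and -0.29 in the double mutant. On this relative scale wild type and rad17 overlapped, while both degron strains lay below them in every library.

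**Figure D1:**
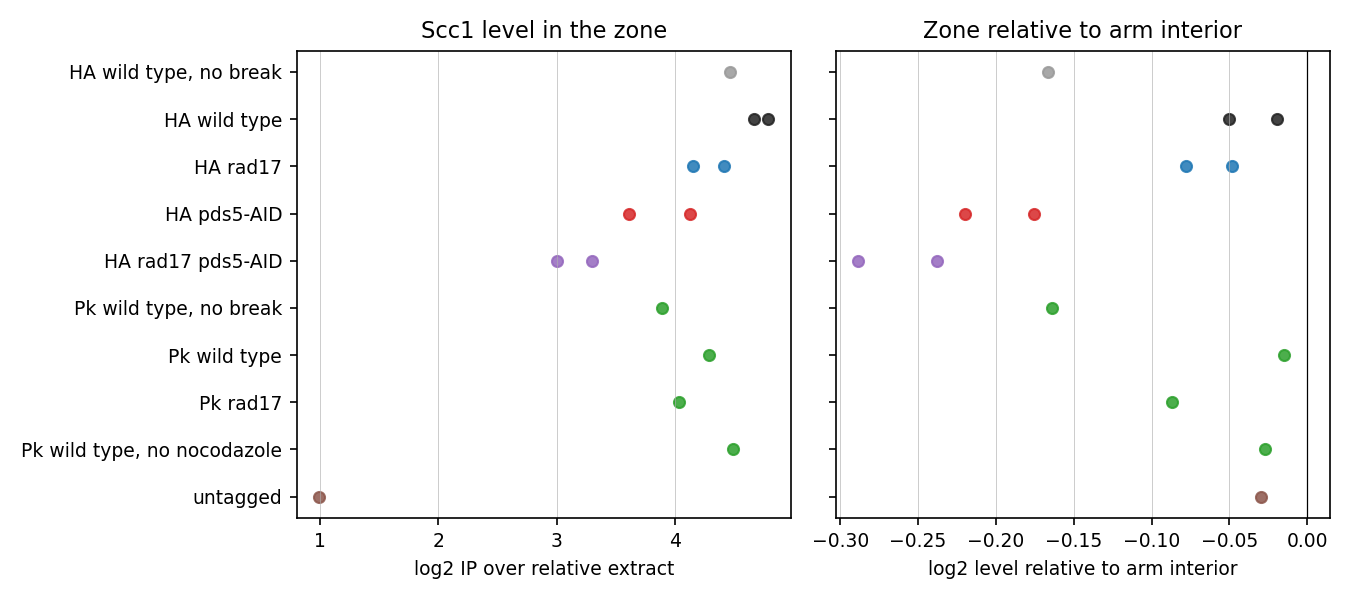
Scc1 in the 825 zone windows of each library, 1 point per library, as the log2 calibrated level on the left and minus the level of the arm interior on the right. On the left the levels fall in order from HA wild type to HA rad17 pds5-AID, and on the right the degron strains sit at -0.18 and below.

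In pds5-AID the zone was lower than in wild type by more than the arm interior was. The zone fell by 0.86 ± 0.24 (SE, n = 2 against 2) on the calibrated log2 scale in pds5-AID, to 0.550 of wild type (adjusted p = 0.0014, limma over 24 pooled regions with Benjamini-Hochberg adjustment). Relative to the interior it fell by 0.16 ± 0.03 (adjusted p = 0.0019), against a fall of 0.45 ± 0.06 in the outer 20 kb (adjusted p = 0.00030). Taken relative to the median window of the genome, in place of the mean of the interior, the zone difference was -0.28. Without moderation of the spread, the calibrated fall missed the threshold of 0.05 (adjusted p = 0.051), and the relative fall kept it (0.0087). In the single-value exact permutation test, the groups were fully apart on both scales with p = 0.33, the smallest that 2 against 2 allows.

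The rad17 mutation on its own left the zone close to the interior. The calibrated zone difference from wild type was -0.44 ± 0.24 (adjusted p = 0.12, limma), and relative to the interior it was -0.03 ± 0.03 (adjusted p = 0.61), with a positive value of 0.09 when set against the genome median. The calibrated difference passed the threshold when either pds5-AID replicate was left out of the shared spread (adjusted p = 0.032 in both cases). The Pk-tagged pair, 1 library each, differed by -0.26 in the zone and by -0.07 relative to the interior. The HA and Pk differences were thus below 0 on both scales.

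The double mutant had the lowest zone level. Calibrated SEs and p-values of the pooled zone, here, above and for the break below, rest on a spread shared by all pooled regions. They do not measure the spread of the zone's own replicates. Against wild type the double mutant fell by 1.58 ± 0.24 calibrated (adjusted p = 9.1e-09) and by 0.23 ± 0.03 relative to the interior (adjusted p = 0.00024, limma). Against rad17, a comparison added after the data had been seen, it fell by 1.14 ± 0.24 calibrated (adjusted p = 2.2e-05) and by 0.20 ± 0.03 relative to the interior (adjusted p = 0.00057). Against pds5-AID it fell by 0.72 ± 0.24 calibrated (adjusted p = 0.0090), but the relative difference of -0.07 ± 0.03 did not pass (adjusted p = 0.19). It was -0.10 and passed with the untagged level subtracted (adjusted p = 0.035), and was -0.01 against the genome median (adjusted p = 0.93). The calibrated difference from pds5-AID was -0.46 (adjusted p = 0.093) without pds5-AID replicate 2, -0.57 (adjusted p = 0.14) without rad17 pds5-AID replicate 1, and missed the threshold without moderation (adjusted p = 0.072). The interaction, that is the effect of pds5-AID in rad17 cells minus that in RAD17 cells, was -0.04 ± 0.04 in the zone relative to the interior (adjusted p = 0.96), so a difference between the 2 backgrounds was not detected.

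How far the deficit extended was read in 20 classes of 5 kb from the end, each relative to the interior. In wild type the 6 zone classes were uneven, with -0.24 at 20 to 25 kb, 0.06 at 25 to 30 kb, 0.18 at 30 to 35 kb, -0.27 at 35 to 40 kb, 0.16 at 40 to 45 kb and -0.16 at 45 to 50 kb, each a mean of 2 libraries with an SD of at most 0.04. The same alternation of high and low classes was present in the other HA libraries, so distances were compared between genotypes and not within 1 genotype.

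**Figure D2:**
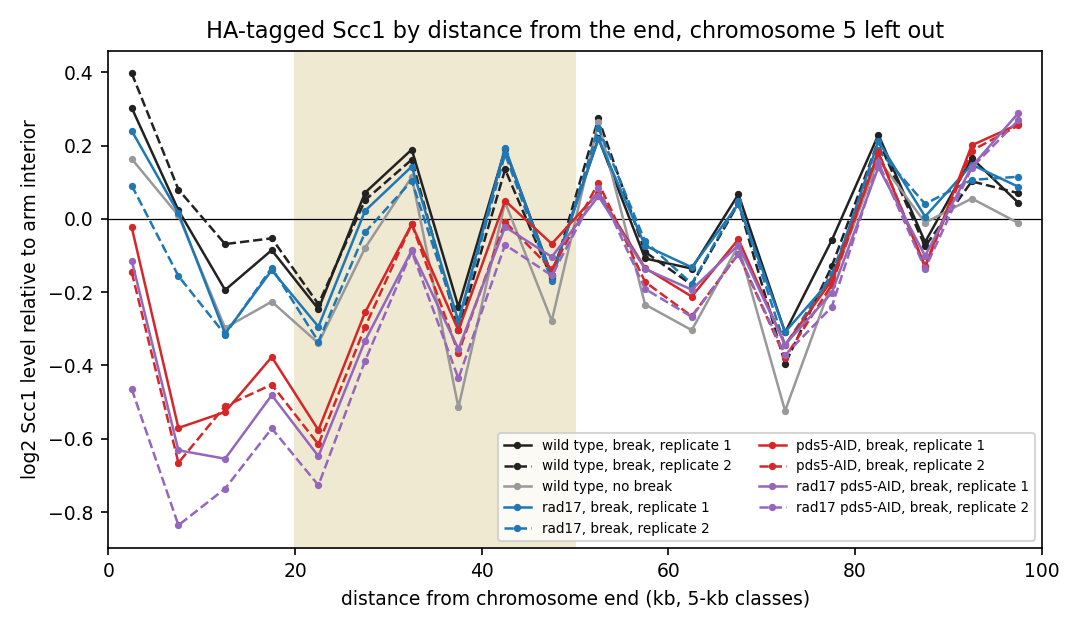
Log2 Scc1 level relative to the arm interior (vertical axis) in 5-kb classes of distance from the end (horizontal axis, kb), 1 line per HA library, with the zone shaded. The degron lines run below wild type and rad17 at 20 to 35 kb and meet them at 45 to 50 kb.

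In pds5-AID 4 of the 6 zone classes fell relative to wild type, where 10 of all 20 classes fell (50%). At 20 to 25 kb the relative level was -0.25 and -0.23 in wild type, -0.29 and -0.33 in rad17, -0.58 and -0.62 in pds5-AID and -0.65 and -0.73 in rad17 pds5-AID, so that the degron libraries were apart from the others. The difference between pds5-AID and wild type was -0.36 ± 0.03 there, about that of the adjoining outer class at 15 to 20 kb (-0.35). It was -0.34 ± 0.03 at 25 to 30 kb (adjusted p = 0.00014, limma) and -0.19 ± 0.03 at 30 to 35 kb (adjusted p = 0.00031). Between 35 and 40 kb the difference of -0.06 ± 0.04 did not pass (adjusted p = 0.14). The next class inward fell by 0.14 ± 0.03 (adjusted p = 0.0058), and the innermost, 45 to 50 kb, differed by 0.05 ± 0.03 (adjusted p = 0.14). In that innermost class the 2 wild-type libraries were at -0.15 and -0.16 and the pds5-AID libraries at -0.07 and -0.14. Beyond the zone, the class from 50 to 55 kb fell by 0.16 and the next, with -0.05, did not pass. Farther inward, the class from 65 to 70 kb fell by 0.13 ± 0.03 (adjusted p = 0.0027), and the last of the 20 classes, which ended at 100 kb, rose by 0.20 ± 0.03 (adjusted p = 0.00026). Classes well inside the zone's inner border thus differed from wild type by as much as the inner classes of the zone did.

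Defined as the farthest class up to which every class from the end inward fell, the pds5-AID deficit reached 35 kb. It was 35 kb in each of the 8 fits that left out 1 replicate of a break group, and 45 kb with the IP signal alone, where the class at 35 to 40 kb passed (adjusted p = 0.038). Without moderation it was 0, since the outermost class, at 0 to 5 kb, missed the threshold (adjusted p = 0.058). In that fit the classes at 20 to 35 kb still passed, each with an adjusted p of 0.0029.

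In the rad17 background the effect of pds5-AID followed the same course. The double mutant minus rad17 was -0.37 ± 0.03 at 20 to 25 kb, -0.35 ± 0.03 at 25 to 30 kb, -0.21 ± 0.03 at 30 to 35 kb, -0.11 ± 0.04 at 35 to 40 kb (adjusted p = 0.026) and -0.23 ± 0.03 at 40 to 45 kb. The innermost class, with 0.03 ± 0.03, did not pass (adjusted p = 0.36). That made 5 of 6 zone classes that fell, against 65% of all classes, and a reach of 45 kb. The reach was 35 kb without rad17 replicate 2, without rad17 pds5-AID replicate 2 or without moderation, and 0 without rad17 replicate 1. Against wild type 5 of 6 zone classes also fell in the double mutant (65% of all), with the largest difference, -0.45 ± 0.03, at 20 to 25 kb and a reach of 45 kb. Without wild-type replicate 1 or rad17 pds5-AID replicate 2 that reach was 35 kb. No interaction passed in any zone class (limma, adjusted p = 0.96 in each), so the longer reach in the rad17 background was not itself a tested difference.

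Neither rad17 alone nor its addition to pds5-AID gave a called zone class. In rad17 0 of 6 zone classes passed (5% of all classes fell), with differences from -0.08 at 20 to 25 kb to 0.02 at 40 to 45 kb, and none had an unadjusted p under 0.05 (limma). In the outer 20 kb the class at 10 to 15 kb alone passed, so the reach by the rule above was 0, or 15 kb when either rad17 pds5-AID replicate was left out. The Pk pair showed differences of -0.11 to -0.03 in the 6 zone classes, all below 0. The double mutant minus pds5-AID lay between -0.09 and -0.03 in the 6 classes. It had 0 calls (0% of all) in limma and 3 at an unadjusted p under 0.05, a count not made over all classes. Its reach was 0, but 30 kb without rad17 pds5-AID replicate 1.

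**Figure D3:**
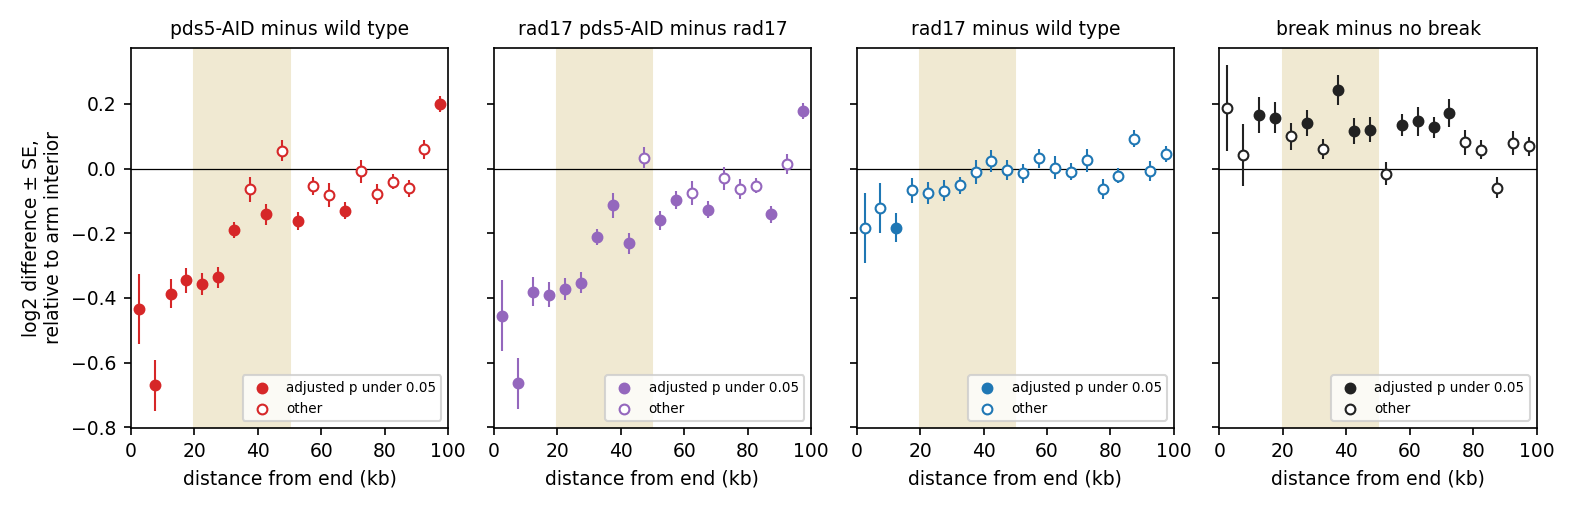
Differences between HA groups in log2 Scc1 relative to the arm interior (± SE from limma) by distance from the end in kb, with the zone shaded and filled points at an adjusted p under 0.05. In both pds5-AID comparisons the points go from about -0.36 at the outer border of the shaded zone to about 0.05 or 0.03 at its inner border. They dip at 40 to 45 kb and again beyond the zone, at 50 to 55 kb (-0.16 in both). The rad17 points lie near 0 in the zone.

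Zones were also tested singly, 29 in all among 109 regions. In pds5-AID 16 zones fell and 2 rose relative to the interior, against 38.5% and 23.9% of all 109 regions (limma, adjusted p under 0.05). The median difference was -0.18 over the zones and -0.02 over all regions. In calibrated terms, where all regions shared the same spread, all 29 were lower and 26 fell (77.1% of all regions), from -1.31 to -0.44. The rises are therefore relative to an interior that was itself lower, not gains of Scc1.

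The left zone of chromosome 7 (chr7:20001-50000) fell most. Its level relative to the interior was 0.18 and 0.27 in wild type, 0.17 and 0.09 in rad17, -0.41 and -0.37 in pds5-AID and -0.50 and -0.55 in rad17 pds5-AID. The 4 libraries with intact Pds5 and the 4 degron libraries were wide apart. The fall in pds5-AID was 0.61 ± 0.05 (adjusted p = 0.00082, limma). Of its 30 windows 24 were lower relative to the interior and 10 fell, where 12.4% of all windows fell. The strongest of these were its main peaks, at 21.5 kb from the end, where the mean relative level went from 3.20 to 1.84, and at 47.5 kb, where it went from 2.98 to 1.60.

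The right zone of chromosome 3 (chr3:292001-322000) and the left zone of chromosome 16 (chr16:20001-50000) followed, each with a fall of 0.45 (adjusted p = 0.0098 and 0.00082, limma). On chromosome 3 the wild-type replicates differed from each other, at 0.42 and 0.71, and the pds5-AID libraries lay below both at 0.10 and 0.12. In the rad17 background this zone did not pass, with -0.14 ± 0.10 (adjusted p = 0.26), the rad17 libraries being at 0.28 and 0.18.

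The right zone of chromosome 13 (chr13:880001-910000) moved the opposite way. Its relative level was -0.05 and -0.18 in wild type, -0.05 and -0.07 in rad17, 0.16 and 0.13 in pds5-AID and 0.23 and 0.16 in rad17 pds5-AID. Every degron library was above every library with intact Pds5. The rise was 0.26 ± 0.05 in pds5-AID (adjusted p = 0.0080, limma) and 0.26 ± 0.05 in the double mutant against rad17 (adjusted p = 0.0084), while the calibrated difference from wild type, -0.44, did not pass (adjusted p = 0.10). The zone holds a single dominant peak at 34.5 kb from the end, with a mean relative level of 3.79 in wild type and 4.09 in pds5-AID (adjusted p = 0.22). Of its 30 windows 4 rose and 2 fell, where 10% and 12.4% of all windows did, so these counts do not set the zone apart. This zone had the highest untagged value of all, 0.22 above the untagged interior, and the part of that background in the rise was not tested beyond the fit with the untagged level subtracted, in which the count of 2 rises in pds5-AID was the same.

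The other zone that rose was the right zone of chromosome 16 (chr16:937001-967000), by 0.25 ± 0.06 in pds5-AID (adjusted p = 0.015, limma) and by 0.21 ± 0.06 in the double mutant against rad17 (adjusted p = 0.029). The right zone of chromosome 4 had a similar value in pds5-AID, 0.24 ± 0.51, but on 3 windows, and did not pass.

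**Figure D4:**
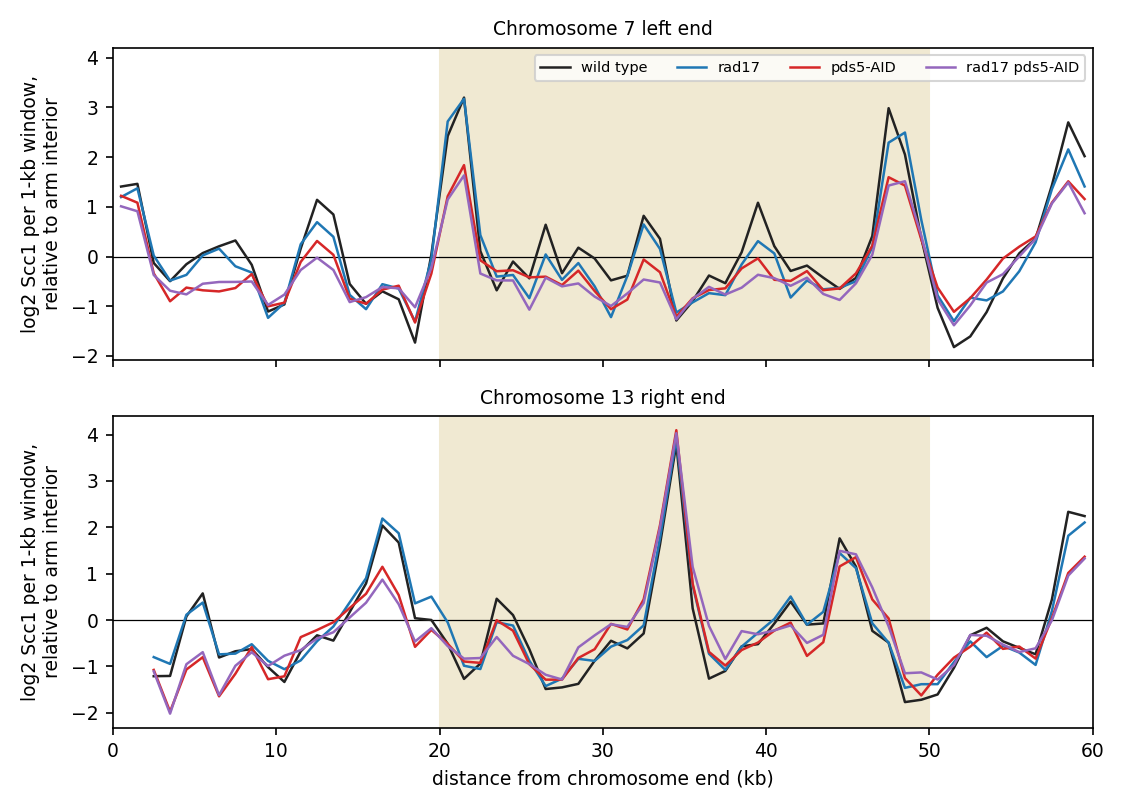
Mean log2 Scc1 of each 1-kb window relative to the arm interior in 4 HA break groups (n = 2 libraries each) against distance from the end in kb, for the zone that fell most and the zone that rose most in pds5-AID. On chromosome 7 left the peaks at 21.5 and 47.5 kb are lower in both degron strains, and on chromosome 13 right the peak at 34.5 kb lies between 3.79 and 4.09 in all 4.

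Much the same zones were low in both backgrounds. In the double mutant against rad17 16 zones fell and 2 rose relative to the interior, against 40.4% and 21.1% of all regions (limma). This comparison shares no library with pds5-AID against wild type, but each zone has the same SE in both, from 1 fit. The overlap of calls is therefore not independent. Of the 16 zones that fell in pds5-AID, 15 fell here as well, and these were 15 of the 16 that fell here. Both rises were shared, and 25 of 29 zones had the same sign. Over the 29 zones the differences correlated with Pearson's r = 0.867 and Spearman's rho = 0.842, as a description of zones that share their libraries within each comparison. The largest falls were again on chromosome 7 left (-0.65 ± 0.05), then on chromosome 6 right (-0.52 ± 0.05) and chromosome 1 left (-0.50 ± 0.09). Against wild type the double mutant also had 16 falls and 2 rises (45.9% and 25.7% of all regions), led by chromosome 7 left (-0.74 ± 0.05), chromosome 2 right (-0.54 ± 0.03) and chromosome 16 left (-0.52 ± 0.04). In calibrated terms all 29 zones fell in each of the 3 comparisons of the double mutant (100% of all regions against wild type and against rad17, 90.8% against pds5-AID). These calls come from the same libraries and a spread shared by all regions, so they are not 29 separate observations. Against pds5-AID the pooled calibrated difference missed the threshold without moderation, as given above.

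**Figure D5:**
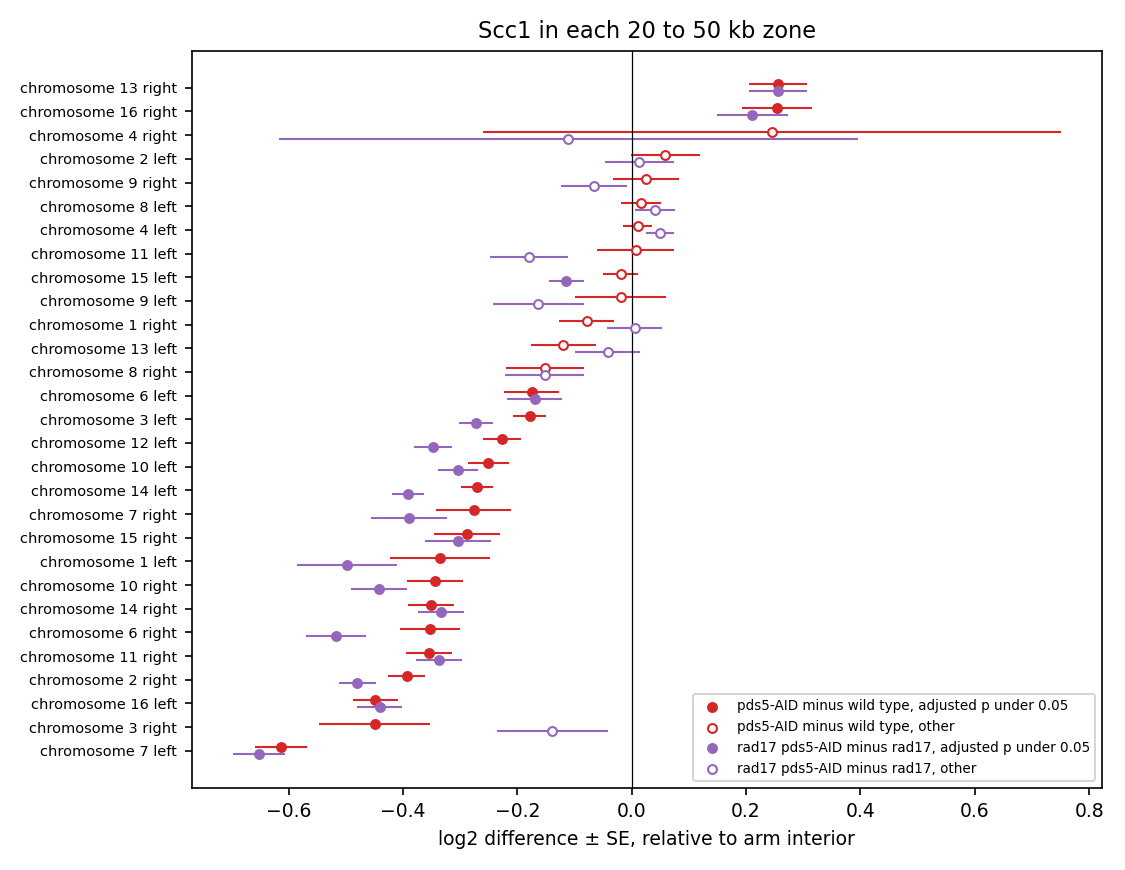
Difference in log2 Scc1 relative to the arm interior (± SE from limma) in each of the 29 zones, ordered by the value in pds5-AID minus wild type, with filled points at an adjusted p under 0.05. Most filled points lie below 0 in both comparisons, chromosome 7 left lowest, and chromosomes 13 right and 16 right lie above 0 in both.

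The size of the pds5-AID difference showed little order by simple features of the arm. Across 29 zones Spearman's rho was -0.12 with arm length, 0.08 with the wild-type level of the zone and -0.18 with the distance of the outermost kept window from the end. It was 0.12 with the difference in the outer 20 kb of the same end (28 zones). These coefficients are descriptions of zones that share the same libraries. The median difference was -0.17 over 15 left zones and -0.28 over 14 right zones, and -0.18 over the 8 zones of chromosomes 1, 3, 6 and 9, the short ones, and -0.23 over the other 21. In wild type itself the zones ran from -0.40 to 0.56 relative to the interior, and 10 of 29 lay above it.

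In the comparisons with rad17 as the only change, single zones seldom passed. Between rad17 and wild type 0 of 29 passed relative to the interior, where 1.83% of all regions fell and 5.50% rose, and 0 calibrated, where 4.59% fell (limma). At an unadjusted p under 0.05 there were 3 and 5, and without moderation 3 had such a p and 0 were called. These unadjusted counts were not made over all regions. The lowest relative values were on chromosome 3 right (-0.33 ± 0.10, adjusted p = 0.12), chromosome 11 right (-0.12) and chromosome 15 right (-0.12), and the highest on chromosome 4 right (0.20, from 3 windows), chromosome 9 left (0.10) and chromosome 16 right (0.06). The Pk pair differed by -0.27 on chromosome 3 right, 0.01 on chromosome 11 right and -0.06 on chromosome 15 right. On the zones highest in HA it differed by -0.63 (chromosome 4 right), -0.01 (chromosome 9 left) and 0.02 (chromosome 16 right). Between the double mutant and pds5-AID 1 zone fell, against 3.67% of all regions, the left zone of chromosome 3 (-0.18 ± 0.03, adjusted p = 0.032). Its relative level was 0.07 in both pds5-AID libraries and -0.09 and -0.14 in the double mutant. This call was lost without either pds5-AID replicate, without either rad17 replicate and without rad17 pds5-AID replicate 2, each time with 0 zones called, and without moderation (0). The count was 5 with the IP alone and 9 with the untagged level subtracted.

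Single windows fell in pds5-AID on nearly every end, as windows did widely over the genome. On the calibrated scale, with 5% of each library's median added to IP and extract, 357 of 825 zone windows fell (34.8% of all 11630 windows fell) and 0 rose (0.0258% of all), at an adjusted p under 0.05 in limma. The median difference was -0.65 over the zone windows and -0.56 over all. The share of windows that fell declined inward, from 58.5% at 20 to 25 kb through 49.3%, 52.2%, 38.7% and 39.3% to 22.3% at 45 to 50 kb. Relative to the interior 160 zone windows fell and 69 rose, against 12.4% and 10% of all windows. By that measure 19.4% of zone windows fell, between 37.4% in the outer 20 kb and 11.3% in the interior. The count rests on particular libraries, since 157 windows fell without wild-type replicate 2 and 126 without pds5-AID replicate 1. With each window's own spread 0 passed, with 430 at an unadjusted p under 0.05 in the moderated fit, a count not made over all windows.

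At 28 of 29 ends at least 1 window fell in pds5-AID, and the right end of chromosome 3 had most, 22 of 30. Since 34.8% of all windows fell, most sets of 30 windows would hold a fall. The count of ends is thus not particular to the zone. Joined where at most 1 window lay between them, the falls made 90 regions. The deepest was chr3:306001-322000, with its peak window 26.5 kb from the end. Log2 values there were 5.42 and 6.67 in wild type, 5.04 and 5.43 in rad17, 3.4 and 3.90 in pds5-AID and 3.24 and 3.28 in rad17 pds5-AID. The degron libraries were below all others. The fall of 2.39 ± 0.32 (adjusted p = 3.5e-11, limma) compares with -1.87 from the IP alone and -1.78 relative to the interior. On the calibrated scale this SE and p rest on a spread shared by all windows, here and for the single windows below. They do not measure the spread of a window's own replicates.

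The next were chr3:24001-34000 (-2.22 at the peak), chr8:23001-25000 (-2.20), chr3:293001-299000 (-2.14) and chr4:25001-28000 (-2.08), and each also passed with the IP alone and relative to the interior. At chr8:23001-24000, for example, values were 6.44 and 7.70 in wild type and 4.46 and 5.28 in pds5-AID. At 4 of these 5 peaks replicate 2 of wild type, whose extract was uneven, was the higher of the pair by over 1 log2 unit. With the IP alone the fall was smaller at each of the 5, for instance -1.23 in place of -2.22 at chr3:24001-34000.

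In the double mutant 771 windows fell against wild type (91.4% of all fell), 567 against rad17 (59.5%) and 298 against pds5-AID (28.2%). Relative to the interior 198 fell and 74 rose against wild type (15.5% and 12% of all), and 153 fell and 31 rose against rad17 (10.2% and 5%). The right end of chromosome 11 fell against wild type in all its 30 windows, chr11:634001-664000, with a peak difference of -3.02 ± 0.32 (adjusted p = 7.0e-19, limma). At that peak, 33.5 kb from the end, values were 7.13 and 7.79 in wild type, 6.68 and 6.73 in rad17, 5.01 and 5.86 in pds5-AID and 4.09 and 4.78 in the double mutant. Against rad17 the deepest region was chr6:233001-258000, with -2.57 ± 0.32 at a peak 21.5 kb from the end, where the rad17 libraries were at 6.01 and 6.33 and the double mutant at 3.53 and 3.68. The count against rad17 was 242 without rad17 replicate 2, 259 without rad17 pds5-AID replicate 1 and 124 without moderation, 1 rise included in the first 2.

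Against pds5-AID the deepest fall of the double mutant was at chr11:41001-44000, 42.5 kb from the end at its peak, by 1.61 ± 0.32 (adjusted p = 0.00013, limma). Values at the peak were 5.4 and 6.04 in pds5-AID and 3.74 and 4.49 in the double mutant. The single window that rose was chr3:28001-29000 (0.87 ± 0.32, adjusted p = 0.040; 0.0172% of all windows rose), with 2.66 and 3.38 in pds5-AID and 3.72 and 4.06 in the double mutant. Relative to the interior 0 zone windows fell (0.292% of all) and 2 rose (0.0344%), with 48 at an unadjusted p under 0.05, a count not made over all windows. The 299 calibrated calls became 1 without pds5-AID replicate 2, 0 without rad17 pds5-AID replicate 1, 34 without its replicate 2, 79 without either rad17 replicate and 676 without pds5-AID replicate 1.

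In rad17 57 zone windows fell on the calibrated scale (6.49% of all windows fell), at 21 ends, with most on chromosome 3 right (9 of 30), and 0 rose (0.0172% of all). The share in the zone was thus near that of all windows. Relative to the interior 0 passed (0.0602% of all fell and 0.043% rose), with 133 at an unadjusted p under 0.05 (limma). That last count was not made over all windows. The median relative difference was -0.006 over the zone windows and 0.008 over all. The deepest falls were at chr15:36001-37000 (-1.99 ± 0.32), chr3:26001-31000 (-1.68), chr3:309001-314000 (-1.58), chr3:303001-306000 (-1.56) and chr14:29001-32000 (-1.52). At the first of these wild type was at 5.35 and 7.49 and rad17 at 4.38 and 4.48, so that the wild-type replicates differed by more than wild-type replicate 1 and rad17. With the IP alone 1 of the 5 passed, chr3:309001-314000 (-0.97, adjusted p = 0.049). The calls rest on wild-type replicate 2, without which 0 were left, and 3 and 15 were left without rad17 replicates 1 and 2. They numbered 106 without wild-type replicate 1 and 123 without either pds5-AID replicate.

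Break induction was compared in wild type between 2 break libraries and the single no-break library, whose extract was the least even. The break lies on chromosome 5, so none of these zones is on the broken chromosome. The calibrated zone difference, break minus no break, was 0.26 ± 0.30 (adjusted p = 0.62, limma). Relative to the interior the zone was higher with the break by 0.13 ± 0.04 (adjusted p = 0.029), from -0.17 to -0.02 and -0.05. The value was 0.08 with the IP alone and no longer passed (adjusted p = 0.15), nor did it pass without moderation (0.062), without wild-type replicate 1 (0.098) or 2 (0.050) or without either rad17 replicate (0.053). In the Pk pair, 1 library each, the zone was higher with the break by 0.40 calibrated, by 0.15 relative to the interior and by 0.11 relative with the IP alone. The Pk no-break extract was uneven too, and the part of extract evenness in these differences was not tested further.

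With the break 4 of 6 zone classes rose relative to the interior, where 50% of all 20 classes did, among them 25 to 30 kb (0.14) and 35 to 40 kb (0.24 ± 0.05, adjusted p = 0.012, limma). With the IP alone the class at 35 to 40 kb was 0.09 (adjusted p = 0.16) and none of the 6 passed. Of single zones 5 rose and 0 fell (12.8% and 13.8% of all regions). These were chromosome 9 right (0.32 ± 0.07, adjusted p = 0.024), chromosome 6 left (0.28), chromosome 3 left (0.27), chromosome 12 left (0.24) and chromosome 8 left (0.21). On chromosome 9 right the break libraries were at -0.03 and -0.09 and the no-break library at -0.38, and the Pk pair was at 0.13 and -0.22. The number of zones called was 2 without wild-type replicate 1, 8 without wild-type replicate 2, 9 without either rad17 pds5-AID replicate and 1 with the IP alone. The right zone of chromosome 4 had the highest value, 1.12, but from 3 windows and with an SE of 0.62. It was also the only zone called on the calibrated scale, where all regions shared the same spread (1.25 ± 0.31, adjusted p = 0.0082, limma, 1.83% of all regions).

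Of single windows 14 fell and 11 rose with the break (3.43% and 1.08% of all), and 74 fell and 85 rose relative to the interior (11.1% and 7.66%). The deepest fall was at chr8:31001-32000, where the no-break library was at 6.44 and the break libraries at 4.24 and 4.94 (-1.85 ± 0.39, adjusted p = 0.00050, limma). With the IP alone that difference was 0.16, and 0 of 825 windows passed. Without wild-type replicate 1 the count was 0, and without wild-type replicate 2 it was 59.

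Within the zone the deficit in the degron strains was deepest where Scc1 was densest. Zone windows were split into 3 equal classes of 275 by their level in the Pk wild-type break library, which was not among the HA libraries compared, and each was set against interior windows of the same range. Relative to those, the highest class was -0.15 ± 0.05 (SD, n = 2) in wild type, -0.18 ± 0.03 in rad17, -0.37 ± 0.03 in pds5-AID and -0.46 ± 0.05 in rad17 pds5-AID. The middle class was at -0.01 in wild type, -0.10 in pds5-AID and -0.13 in the double mutant. The lowest class was at 0.01 ± 0.02 in wild type, 0.02 ± 0.01 in rad17, 0.00 ± 0.02 in pds5-AID and -0.035 ± 0.002 in the double mutant. So the difference of pds5-AID from wild type was -0.22 in the highest class, -0.09 in the middle and -0.01 in the lowest. It was larger than the spread of replicates in the first 2, and no test was run between classes. The outer 20 kb had the same order, with -0.45, -0.42 and -0.29, so the order was not particular to the zone. In the zone, the single HA no-break library differed from wild type with the break by -0.19, -0.09 and -0.10. Window levels were less spread in the degron strains, in the zone and in the interior alike, with an SD over zone windows of 0.852 and 0.937 in pds5-AID and 0.831 and 0.894 in the double mutant, against 1.10 and 1.24 in wild type and 1.09 in both rad17 libraries. Over interior windows the SD was 1.0 and 1.11 in pds5-AID and 0.996 and 1.09 in the double mutant, against 1.17 and 1.32 in wild type and 1.17 and 1.18 in rad17.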

How the data were processed

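Scc1 ChIP-seq signal was taken from the deposited files as coverage in 12447 windows of 1 kb, the same in 28 libraries. Per the submitters' processing notes, the tools were Bowtie2, MACS2, SAMtools and bedtools. Their genome build was not given in the sources used here, and no gene was placed. Per the labels, IP signal was calibrated with Candida glabrata, and the extracts are unscaled coverage. IP reads were derived from the smallest value above 0. Each IP was divided by its own extract relative to that extract's median. Region values are log2 of mean IP over mean relative extract. Window values had a pseudocount of 5% of the library median.

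Differences among 9 HA IP libraries were tested with limma 3.58.1 (R 4.3.3) over 5 group means with 4 residual degrees of freedom, for 24 pooled regions (23 relative to the interior), 109 single regions and 11630 windows, with Benjamini-Hochberg adjustment and a threshold of 0.05. The 1 library without a break took its spread from the replicated groups. Prior degrees of freedom were infinite on the calibrated scale, so all features shared 1 spread there, and were 3.42, 1.41 and 8.20 on the relative scale. The window fit relative to the interior was tested on simulated data, and the calibrated fits were not. Pk groups had 1 library each and no test. The members, distance classes and named regions were chosen with earlier results of these data known. Named zones are the 3 lowest and 3 highest per comparison relative to the interior, and named windows the peaks of the 5 deepest joined regions, of which the text gives those that matter most.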

Additional observations from a re-analysis of the deposited data

Results flagged for a closer look

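The Pk-tagged library with a break and no nocodazole enters no comparison above. Its zone level was 4.50, against 0.99 in the untagged strain, which is 11.4-fold higher and marks a signal in data outside the comparisons. Its median IP coverage in the zone was 2.5 reads, and relative to its own interior the zone was at -0.03. The untagged strain was measured with the HA antibody and with nocodazole, so the fold compares libraries that also differ in those.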

How the results depend on the processing

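Zone differences relative to the interior kept their direction and side of the threshold in every alternative run for pds5-AID against wild type and for the double mutant against wild type and against rad17. Extract filters of 0.5 to 2 or none, and distances counted from the outermost kept window, changed no call of a pooled zone and moved no count by over 1.5 times. The causes of the changes below were not tested. Counting from a few reads per window limits the Pk library without nocodazole and the Pk no-break library. The subtraction of the untagged level, the shifted distance, the fits without the no-break library and the double mutant against rad17 were chosen after seeing the data.

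With the IP alone, the relative break difference was 0.085 (limma, adjusted p = 0.15), the reach in pds5-AID 45 kb, and the zones called were 1 in rad17, 5 in the double mutant against pds5-AID and 1 for the break. Windows called were then 5 in rad17, 637 in the double mutant against pds5-AID and 0 for the break. With each feature's own spread (limma without moderation), adjusted p was 0.051 for the calibrated zone in pds5-AID (-0.86), 0.072 for the double mutant against pds5-AID (-0.72) and 0.062 for the relative break difference (0.13). The reach was then 0 in pds5-AID and 35 kb in the double mutant against wild type and against rad17. Zones called were 0 in the double mutant against pds5-AID and 3 for the break. Windows called were 0 in pds5-AID, rad17, the double mutant against pds5-AID and the break, and 124 in the double mutant against rad17.

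Relative to the genome median, the rad17 zone difference turned to 0.087 (adjusted p = 0.11, limma). With the untagged level subtracted, the double mutant minus pds5-AID was -0.10 relative to the interior (adjusted p = 0.035, limma), with 9 zones called. On the calibrated scale 29 zones were called in the double mutant against each of wild type, pds5-AID and rad17, and 1 for the break. Windows called relative to the interior were 229 in pds5-AID, 0 in rad17, 272, 2 and 184 in the double mutant against wild type, pds5-AID and rad17, and 159 for the break. With a pseudocount of 20%, 533 windows were called in the double mutant against pds5-AID and 0 for the break.

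Same-numbered replicates deviated together with correlations of 0.08 to 0.34 over all windows, 1 of 6 pairs of groups being under 0.1, so the numbers were not taken to pair the samples. With the replicate block all the same, rad17 passed in the calibrated zone (-0.44, adjusted p = 0.00066, limma) and the double mutant minus pds5-AID passed relative to the interior (-0.065, adjusted p = 0.039). Under the block the reach in pds5-AID was 45 kb, zones called were 1 in rad17 and 3 in the double mutant against pds5-AID, and windows called were 547 in pds5-AID, 360 in rad17 and 758 in the double mutant against pds5-AID. The break comparison was not run with the block, because the title of the no-break library gives no replicate number, and that library was left out of the block fit.

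Leaving out 1 library at a time gave ranges of -0.57 to -0.32 for the calibrated zone in rad17, -0.98 to -0.46 for the double mutant against pds5-AID, and 0.12 to 0.15 for the relative break difference. Where a group was left with 1 library, it was assumed to vary like the others. The reach ranged from 0 to 15 kb in rad17, 35 to 45 kb in the double mutant against wild type, 0 to 30 kb against pds5-AID, 0 to 45 kb against rad17 and 0 to 5 kb for the break. Zones called ranged from 0 to 1 in rad17, 0 to 1 in the double mutant against pds5-AID and 2 to 9 for the break. Windows called ranged from 126 to 484 in pds5-AID, 0 to 123 in rad17, 0 to 676 in the double mutant against pds5-AID, 242 to 619 against rad17 and 0 to 73 for the break.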
